A study of Homo sapiens with 6 samples.

Results

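MTDH and SND1 are 2 of the 8197 genes with at least 1 called site in this series, and were chosen by symbol, not by any measured value. MTDH encodes AEG-1, the protein that was precipitated, and SND1 encodes a cytosolic protein that binds AEG-1. Together they held 48 of the 72385 sites listed over all libraries, 31 on MTDH and 17 on SND1. The question is whether AEG-1 precipitation recovered the mRNA of the protein itself and of its partner, in which libraries, and where along each mRNA.

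The cells were the AEG-1-14 line, which the labels derive from HepG3, a hepatoblastoma line, and which stably expresses AEG1 tagged with HA at the C-terminal end. All 6 libraries, controls included, came from these tagged cells after anti-HA precipitation, partial RNase I digestion and gel purification. The groups were HITS-CLIP AEG1 (2 libraries, UV at 254 nm), HITS-CLIP negative control (2 libraries, no UV), PAR-CLIP AEG1 (1 library, UV at 365 nm) and PAR-CLIP negative control (1 library, no UV). In both methods, UV light bonds RNA to the proteins that touch it, so that RNA fragments stay with the protein through precipitation. The line is, as far as the labels say, a single stably expressing line. The labels do not say which MTDH sequence the tagged construct carries, so fragments of its transcript and of the cell's own MTDH mRNA cannot be told apart here.

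AEG-1, also known as metadherin or LYRIC, sits in the membrane of the endoplasmic reticulum (ER) with a long, lysine-rich cytosolic part, and it is raised in many liver cancers. SND1, or Tudor-SN, carries staphylococcal nuclease-like domains and a Tudor domain, binds RNA, and has been found in the RNA-induced silencing complex, where small RNAs guide the silencing of mRNAs. The MTDH mRNA is therefore translated into an ER membrane protein and the SND1 mRNA into a protein with no known membrane anchor.

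The libraries held 6378 and 5651 sites in HITS-CLIP AEG1, 60 and 90 in their unirradiated controls, 60085 in PAR-CLIP AEG1 and 121 in its unirradiated control. Read depth is unknown, because the files list sites with a log2 score and no counts. Within a transcript, the scores of all libraries, taken out of the log, are whole numbers times a constant of that transcript, up to a few fixed factors just under 1. These whole numbers are called units below. What a unit stands for was not established, a common factor per transcript would go unseen, and units are not scaled for library size. Of 12 markers of hepatocytes and hepatoblastoma, 9 had a site in both HITS-CLIP AEG1 libraries, against 6.57% of protein-coding genes. In PAR-CLIP AEG1, 11 of 12 had a site, against 39.8%, with DLK1 listed in no library. The HITS-CLIP controls listed 2 of the 12 markers and the PAR-CLIP control 3. Among them ALB held 11 and 9 sites in the HITS-CLIP controls and 13 in the PAR-CLIP control. Of 14 markers of other cell types, 2 (CD68 and LYZ) had a site in both HITS-CLIP AEG1 libraries, and 3 had a PAR-CLIP AEG1 site. The labels leave unsaid whether each HITS-CLIP replicate had a culture of its own, so p-values measure only the spread between these libraries, which may be technical.

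The MTDH mRNA carried sites in all 3 AEG1 libraries. It held 10 sites in HITS-CLIP AEG1 replicate 1 and 8 in replicate 2, against 0 in each HITS-CLIP control. It held 12 sites in PAR-CLIP AEG1, against 1 in the PAR-CLIP control. Each AEG1 library thus stood above its unirradiated controls, and the HITS-CLIP groups did not overlap. No library came from cells without the tag, so these controls compare UV with no UV only. The mean number of sites was 9 ± 1.41 in HITS-CLIP AEG1 and 0 in the controls (SD, n = 2 each; exact permutation test, two-sided, p = 0.333, the smallest that 2 against 2 libraries allows). Over all protein-coding genes, 6.34% had more sites in each HITS-CLIP AEG1 library than in each control, and 39.7% had more sites in PAR-CLIP AEG1 than in its control.

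The SND1 mRNA carried many PAR-CLIP sites and almost none in HITS-CLIP. It held 1 site in HITS-CLIP AEG1 replicate 1 and 0 in replicate 2, against 0 in each HITS-CLIP control. The HITS-CLIP groups overlapped at 0. The mean was 0.5 ± 0.707 sites in AEG1 and 0 in the controls (SD, n = 2 each; exact permutation test, two-sided, p = 1). With 2 against 2 libraries the smallest possible p is 0.333, so this test cannot decide whether SND1 differs from the controls. Without replicate 1 the difference was 0. In PAR-CLIP it held 16 sites in AEG1, against 0 in the control, from 1 library on each side and so without a replicate check.

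The same was seen in units. MTDH summed to 82 and 127 units in HITS-CLIP AEG1, against 0 and 0 in the controls, and to 223 in PAR-CLIP AEG1, against 2 in its control. SND1 summed to 4 and 0 units in HITS-CLIP AEG1, against 0 and 0 in the controls, and to 175 in PAR-CLIP AEG1, against 0 in its control. Divided by the furthest covered position of each mRNA, nt 4449 for MTDH and nt 3466 for SND1, the PAR-CLIP AEG1 level was 50.1 units per 1000 nt on MTDH and 50.5 on SND1. The HITS-CLIP AEG1 levels on the same scale were 18.4 and 28.5 on MTDH and 1.15 and 0 on SND1. The MTDH replicates differed from each other, but both lay above both values of SND1. Levels of the genes are on 1 scale only if a unit is the same amount on both transcripts, which was not established, and the difference between the genes was not tested. The highest deposited PAR-CLIP AEG1 score was 12.34 on MTDH, at a site of 1275 nt with 163 units. On SND1 it was 7.99, at a site of 533 nt with 30 units. These scores belong to single sites of unlike width and carry a constant of each transcript, so they are not comparable with the levels above.

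**Figure D1:**
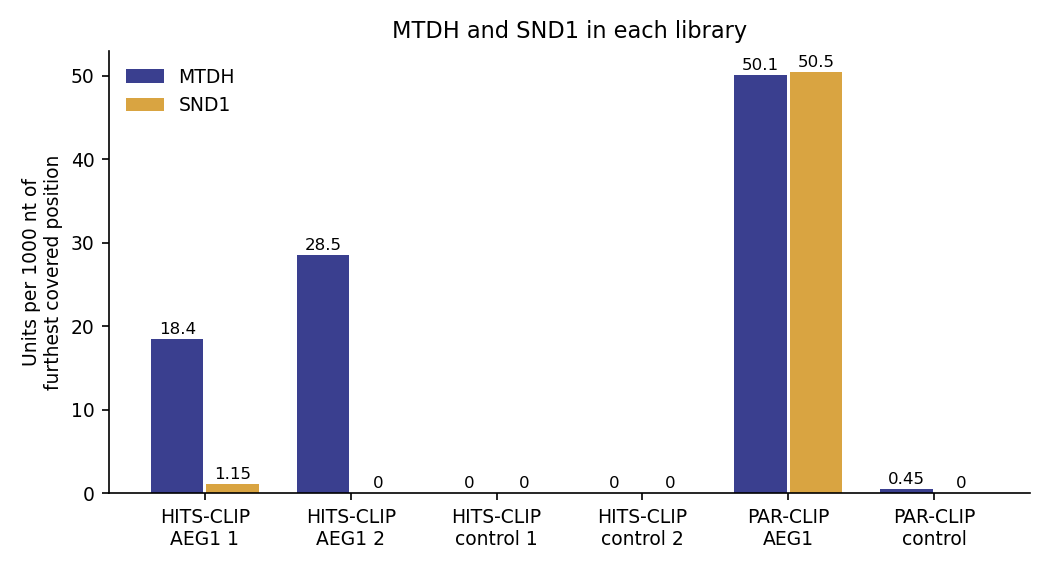
Summed units per 1000 nt of the furthest covered position (vertical axis) for MTDH (blue) and SND1 (yellow) in each of the 6 libraries (horizontal axis), 1 bar per gene and library. PAR-CLIP AEG1 stands at 50.1 for MTDH and 50.5 for SND1, whereas HITS-CLIP AEG1 stands at 18.4 and 28.5 for MTDH and 1.15 and 0 for SND1.

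The mean HITS-CLIP AEG1 units over the PAR-CLIP AEG1 units were 0.469 for MTDH and 0.0114 for SND1. This ratio uses the same transcript on both sides, so the constant of the transcript drops out. Of 4091 genes with PAR-CLIP units, 196 had a higher ratio than MTDH, and 58.8% had no HITS-CLIP AEG1 units at all. Among the 1109 of them with sites in both HITS-CLIP replicates, MTDH stood at the 82.4th percentile, where the median ratio was 0.168 (quartiles 0.0828 and 0.351). SND1, with a site in 1 replicate only, was above the 58.8% without HITS-CLIP units and below 1577 genes. MTDH was thus in the upper part of the genes that both methods list, and SND1 among those that PAR-CLIP lists and HITS-CLIP barely does.

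By number of sites, MTDH ranked high in HITS-CLIP. No library of the series measures mRNA level, so numbers of sites and units, and these ranks, were not adjusted for it. In all, 133 of 1860 genes in replicate 1 and 151 of 1701 genes in replicate 2 had more sites. In PAR-CLIP AEG1, 1397 of 8002 genes had more sites than MTDH and 811 had more than SND1. These counts put MTDH at the 81.1th and SND1 at the 89.2th percentile of that library, and the standing changed with the measure. By covered length MTDH stood at the 94.96th and SND1 at the 96.9th percentile. By highest score they stood at the 96.9th and the 48.5th, and by sites per 1000 nt of the furthest covered position at the 46.4th and the 75.02th. Among genes with the same number of PAR-CLIP sites, themselves included and a comparison chosen after the values were seen, 60 of the 235 genes with 12 sites (25.5%) and 29 of the 114 genes with 16 sites (25.4%) had a site in both HITS-CLIP AEG1 libraries. Of the 114 genes with 16 sites, 69 had no HITS-CLIP AEG1 site and 16 genes, SND1 among them, had sites in 1 replicate.

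The HITS-CLIP sites on MTDH lay in 1 part of the mRNA, listed as NM_178812. Positions are nt from the first base of the mRNA. In HITS-CLIP AEG1 replicate 1 the sites ran from nt 396 to 1940 and covered 710 nt. In replicate 2 they ran from nt 627 to 1941 and covered 524 nt. No HITS-CLIP site lay beyond nt 1941, although PAR-CLIP sites reached nt 4449. The furthest HITS-CLIP end was 0.436 of the furthest PAR-CLIP end on MTDH, against a median of 0.691 over the 1243 genes that PAR-CLIP AEG1 and both HITS-CLIP AEG1 replicates list (quartiles 0.441 and 0.883).

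The highest HITS-CLIP site on MTDH was the same in both AEG1 libraries. It ran from nt 942 to 989 in replicate 1, with a score of 9.24 and 19 units, and from nt 942 to 997 in replicate 2, with a score of 10.12 and 35 units. Both sites began at the same base, and they held 23.2% and 27.6% of the MTDH units of their libraries. Per length they stood at 39.6 and 62.5 units per 100 nt, and the next highest sites at 11.1 and 30.2. In replicate 1 an adjoining site ended at nt 941, so that both sites would count as 1 if touching sites were merged. The only MTDH site of any control, in the PAR-CLIP control, spanned this place, from nt 885 to 991, with 2 units. Among all protein-coding genes, 0.329% had a site in that control. The wide PAR-CLIP AEG1 site over the same place, from nt 833 to 2107, had 163 units and a score of 12.34.

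The other MTDH sites shared by the replicates lay on both sides of this place. Sites of replicate 1 overlapped a site of replicate 2 in 6 of 10 cases, and sites of replicate 2 overlapped a site of replicate 1 in 7 of 8. They shared 448 nt, which is 63.1% of the covered length of replicate 1 and 85.5% of that of replicate 2. The shared stretches ran from nt 627 to 697, 705 to 760, 875 to 918, 942 to 989, 1275 to 1354, 1453 to 1560 and 1900 to 1940. The stretch from nt 1453 to 1560 lay in sites of 11 and 23 units, and the stretch from nt 1275 to 1354 in sites of 13 and 9 units. Where replicate 1 had 1 site of 16 units, from nt 605 to 760, replicate 2 had a site from nt 627 to 697 with 18 units and a second from nt 705 to 767 with 19 units. Sites found in a single replicate were small in replicate 1, with 2 to 4 units each at nt 396 to 433, 1168 to 1209, 1397 to 1438 and 1847 to 1875. In replicate 2 there was 1, from nt 1217 to 1261, with 8 units.

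**Figure D2:**
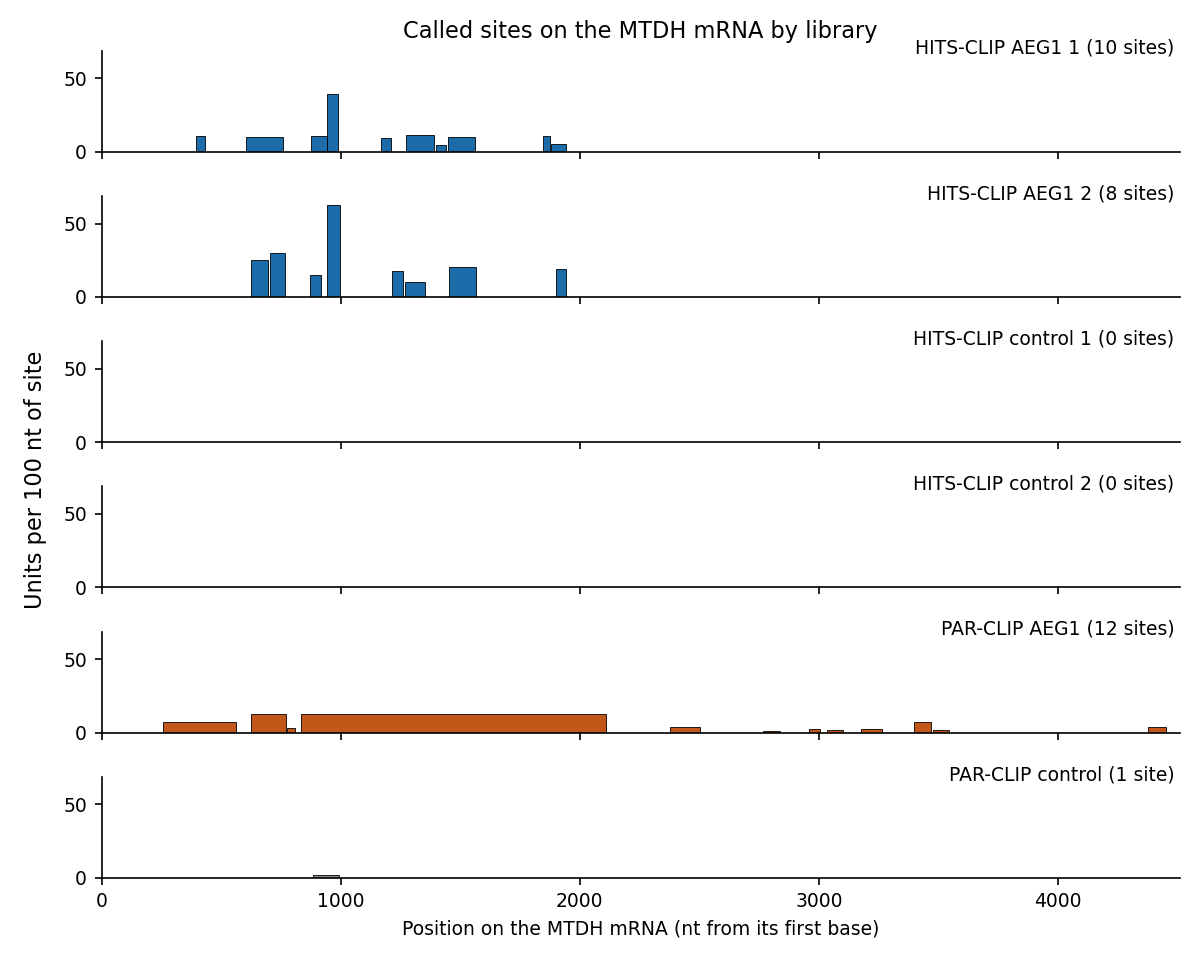
Sites on the MTDH mRNA in the 6 libraries, with position from the first base of the mRNA (horizontal axis, nt) and units per 100 nt of site (vertical axis); each box is 1 site and its width is the site's length. The HITS-CLIP AEG1 sites lie between nt 396 and 1941 and are highest at nt 942, the PAR-CLIP AEG1 sites are dense up to nt 2107 and sparse after it, and the control holds 1 low site at nt 885 to 991.

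PAR-CLIP AEG1 covered the same part of MTDH more fully and went on beyond it at a much lower level. The wide site from nt 833 to 2107 is 1275 nt long, a width that 44 of 8002 genes exceed, and held 73.1% of the PAR-CLIP units of the gene. Sites from nt 258 to 563 with 22 units and from nt 626 to 770 with 18 units preceded it, beside a site of 35 nt with 1 unit. Up to nt 2107, the end of the wide site and a division chosen after the values were seen, PAR-CLIP sites covered 83.6% of the mRNA at 96.8 units per 1000 nt. From there to nt 4449, 8 sites of 47 to 124 nt with 1 to 5 units each covered 26.0% at 8.11 units per 1000 nt. Both HITS-CLIP AEG1 libraries had all of their MTDH units, 82 and 127, in the first stretch.

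All 18 HITS-CLIP AEG1 sites on MTDH, and the 1 on SND1, overlapped a PAR-CLIP AEG1 site by at least 1 nt, 19 of 19 in all (100%). These sites are not independent, since 13 of the 19 overlap a site of the other replicate. The same share over all HITS-CLIP AEG1 sites of the series is not given here. The HITS-CLIP sites covered 786 nt of MTDH in either replicate, and 97.3% of these lay under PAR-CLIP sites. All 448 nt shared by the replicates did. PAR-CLIP sites also cover 53.3% of the MTDH mRNA up to its furthest position and 82.9% of the SND1 mRNA, and the wide site contains most of the HITS-CLIP sites. Where the overlap had to reach 50% of each site, it held for 1 of 19.

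SND1, listed as NM_014390, had sites along 82.9% of the stretch up to its furthest called position in PAR-CLIP AEG1. The length of the mRNA itself was not at hand. Its 16 sites ran from nt 15 to 3466 and covered 2875 nt, with a longest gap of 230 nt between neighbouring sites. The site with most units, from nt 1062 to 1594, had 30 units and a score of 7.99. The last site, from nt 3322 to 3466, had 24 units and was the highest per length, at 16.6 units per 100 nt against a median of 5.46 over the 16 sites. The sites from nt 337 to 574 and from nt 1777 to 1908 followed with 19 and 16 units. The first site, from nt 15 to 233, had 3 units, and the lowest, from nt 3032 to 3091, had 1. The only HITS-CLIP site, from nt 1177 to 1215 in replicate 1, had 4 units and a score of 5.00 and lay within the PAR-CLIP site with most units.

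**Figure D3:**
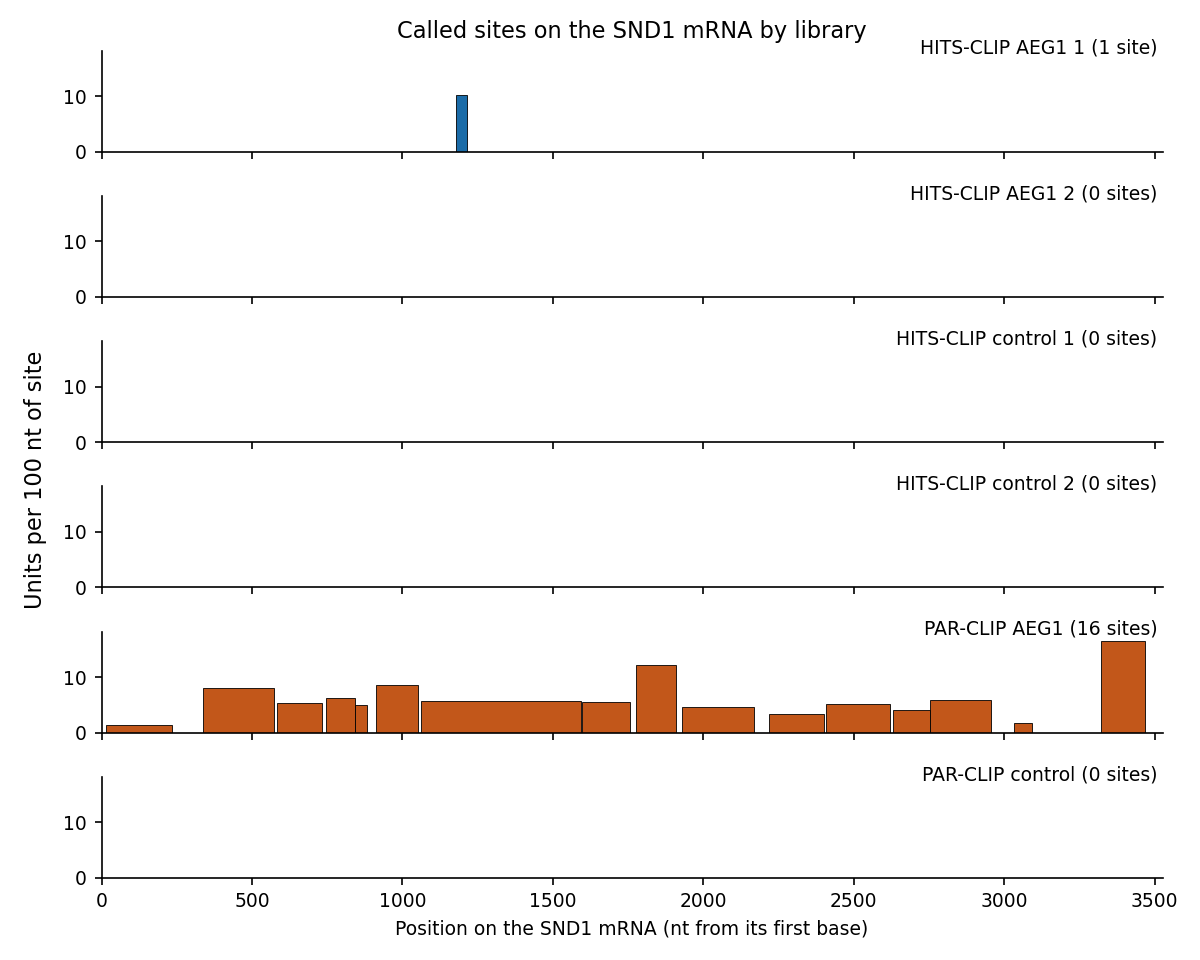
Sites on the SND1 mRNA in the 6 libraries, drawn as for MTDH but on its own vertical scale, with position from the first base of the mRNA (horizontal axis, nt) and units per 100 nt of site (vertical axis). The 16 PAR-CLIP AEG1 sites lie from nt 15 to 3466, cover 2875 nt and are highest at the last site, while HITS-CLIP AEG1 has 1 site in replicate 1 and none in replicate 2.

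The PAR-CLIP units of the genes were placed differently along their mRNAs. Up to the midpoint of the furthest covered position, MTDH held 204 of its 223 PAR-CLIP units (91.5%) and SND1 held 89 of 175 (50.9%). Over 4091 genes the median was 51.2% (quartiles 37.5 and 65.8), which put MTDH at the 97.7th and SND1 at the 49.5th percentile. This standing is a description of 1 library. The units of the tagged construct and of the cell's own mRNA were not separated, and coding and untranslated parts of the mRNAs were not analysed here. The RefSeq table also lists 5 MTDH pseudogenes, and the sources used here do not say how reads that match several places were handled.

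**Figure D4:**
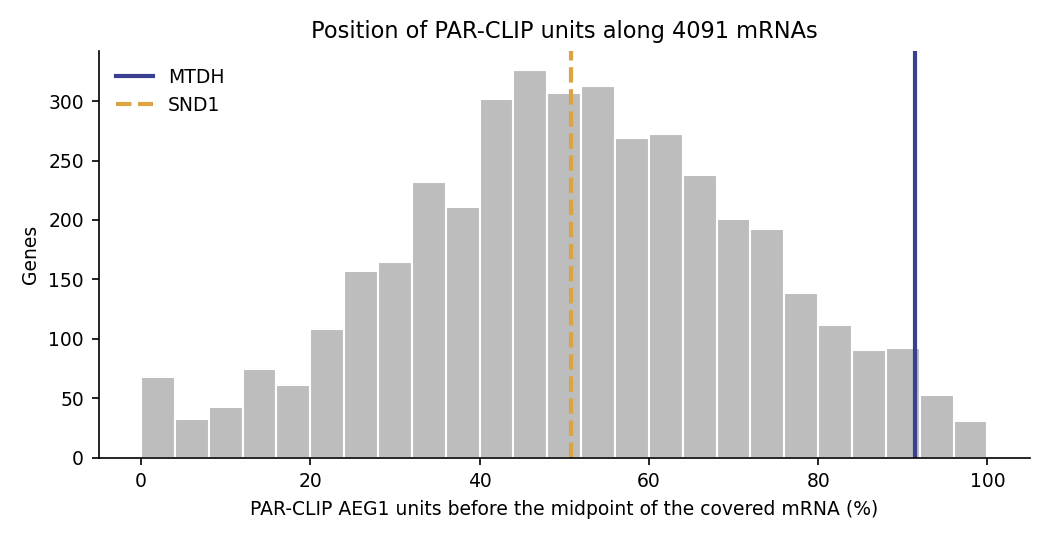
Share of PAR-CLIP AEG1 units that lie before the midpoint of the furthest covered position (horizontal axis, %) over 4091 genes (vertical axis, number of genes). The lines mark MTDH at 91.5% and SND1 at 50.9%, where the median gene is at 51.2%.

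Of 11 genes for proteins reported to bind AEG-1, SND1 included, 10 had a PAR-CLIP AEG1 site, all but ZBTB16, against 39.8% of protein-coding genes. That share is over all 20056 protein-coding genes, whether or not these cells express them. HITS-CLIP AEG1 listed 2 of 11 in both replicates, against 6.57% of protein-coding genes and 15.6% of those with a PAR-CLIP site. The HITS-CLIP count was 4 in replicate 1 alone, and 1 where at least 2 sites were required. The median over the 11 genes was 12 PAR-CLIP sites, against 0 over all protein-coding genes, most of which had no PAR-CLIP site. Among genes with a PAR-CLIP AEG1 site, the median was 12.5 sites for the list and 5 for protein-coding genes. PABPC1, the poly(A)-binding protein of the cytosol, held 3 and 3 HITS-CLIP AEG1 sites and 13 PAR-CLIP AEG1 sites. YY1, a transcription factor, held 1 and 1 HITS-CLIP AEG1 sites, of 32 and 21 nt with only 3 and 2 units, and 13 PAR-CLIP AEG1 sites. CREBBP, a histone acetyltransferase, held 15 PAR-CLIP sites and no HITS-CLIP site. AGO2, the slicing Argonaute of the silencing complex, held 9 PAR-CLIP sites with 24 units and no HITS-CLIP site. LRRC59, a ribosome-associated ER membrane protein, held 1 and 0 HITS-CLIP sites and 12 PAR-CLIP sites with 74 units. No gene of this list had a site in a control.

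The genes of proteins that SND1 works with or resembles carried HITS-CLIP sites at shares near that of all genes. Of 20 RNA silencing proteins, 16 had a PAR-CLIP AEG1 site (80%, against 39.8% of protein-coding genes) and 2 had a HITS-CLIP site in both AEG1 replicates (10%, against 6.57%). These were DROSHA, the nuclear nuclease that cuts primary microRNA transcripts, and FMR1, an RNA-binding protein of neurons and other cells. The DROSHA sites had 3 and 2 units in HITS-CLIP AEG1, against 3 and 3 units in the HITS-CLIP controls, and FMR1 held 1 and 1 sites and none in PAR-CLIP. DICER1, which cuts microRNA precursors, held 30 PAR-CLIP sites, XPO5, which exports them from the nucleus, 21, and MOV10, a helicase bound to Argonautes, 19. None of these 3 had a HITS-CLIP site. Of 21 genes for proteins with Tudor domains, 10 had a PAR-CLIP site and 1 a HITS-CLIP site in both replicates, shares of 47.6% and 4.76% beside 39.8% and 6.57% of protein-coding genes. This was AKAP1, an anchor at the mitochondrial outer membrane, with 1 and 2 HITS-CLIP AEG1 sites, against 0 and 1 in the controls of that method, and held 22 in PAR-CLIP AEG1. SETDB1, a histone methyltransferase, held 11 PAR-CLIP sites and no HITS-CLIP site, and PHF1, a Polycomb partner, held 10 PAR-CLIP sites and 0 and 1 HITS-CLIP sites. Among members with a PAR-CLIP site, HITS-CLIP listed 1 of 16 silencing genes and 1 of 10 Tudor genes in both replicates. The share among protein-coding genes with a PAR-CLIP site was 15.6%.

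The proteins that MTDH resembles, membrane proteins of the ER that contact ribosomes or RNA, carried HITS-CLIP sites in greater number. HITS-CLIP AEG1 listed 17 of 22 in both replicates, against 6.57% of protein-coding genes and 15.6% of those with a PAR-CLIP site, and PAR-CLIP AEG1 listed 22 of 22, against 39.8%. Their median was 10.5 PAR-CLIP sites. RRBP1, the ribosome-binding protein of the rough ER, held 11 and 18 HITS-CLIP sites with 80 and 137 units, and 22 PAR-CLIP sites with 173 units. SSR1, a subunit of the translocon-associated complex, held 7 and 7 HITS-CLIP sites with 93 and 92 units, and 33 PAR-CLIP sites with 307 units. EMC1, of the complex that inserts membrane proteins, held 5 and 4 HITS-CLIP sites with 20 and 28 units, and 26 PAR-CLIP sites with 192 units. HITS-CLIP listed none on KTN1, SEC61B, SEC61G or ERN1, which are singled out from their values, and on LRRC59 it listed 1 in replicate 1 only. The lists were chosen with earlier results known and were not tested, so the counts describe these libraries.

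**Figure D5:**
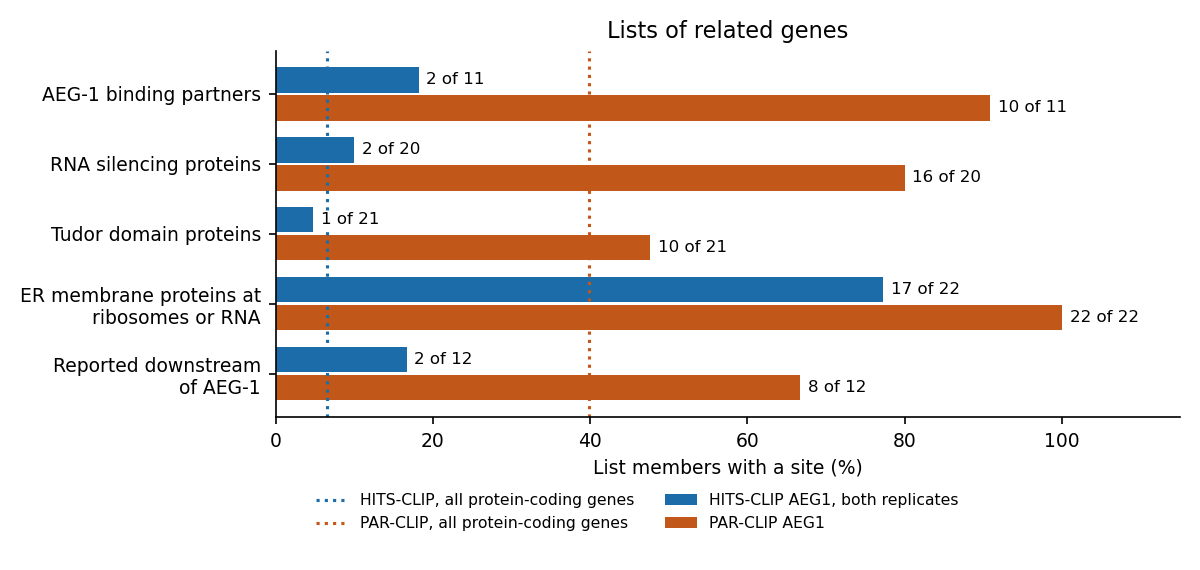
Share of the members of 5 gene lists (rows) with a site in both HITS-CLIP AEG1 replicates (blue) or in PAR-CLIP AEG1 (orange), as percent of members (horizontal axis), with the number of members at each bar; dotted lines mark the shares of all protein-coding genes, 6.57% and 39.8%. The ER membrane proteins stand at 17 of 22 in HITS-CLIP, the other lists at 1 or 2 members.

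By the number of sites over all 6 libraries, the genes nearest to MTDH were CLDN1, SERINC1, TMBIM6, ACTN4 and ARL6IP1, in that order, at Euclidean distances of 0.312 to 0.837 of log2(sites + 1). CLDN1, a tight junction membrane protein, held 8 and 8 HITS-CLIP AEG1 sites, 11 in PAR-CLIP AEG1 and 1 in the PAR-CLIP control. TMBIM6, an ER membrane protein that limits cell death, held 6 and 7 HITS-CLIP AEG1 sites and 11 in PAR-CLIP AEG1. ACTN4, an actin-crosslinking protein of the cytosol, held 12 and 9, and 19. Each of the 5 genes had, like MTDH, 1 site in the PAR-CLIP control and 0 in both HITS-CLIP controls, a pattern that weighs heavily in this distance.

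For SND1, 6 genes had the same number of sites in every library, and covered length ordered them. The nearest 5 were YWHAZ, a cytosolic adaptor of phosphorylated proteins, IDH1, the cytosolic isocitrate dehydrogenase, TSR1, a factor of ribosome assembly, ALDH3A2, an aldehyde dehydrogenase of the ER membrane, and VWCE. YWHAZ was closest, with 5 and 0 units in HITS-CLIP AEG1 and 164 in PAR-CLIP AEG1, beside 4 and 0 and 175 for SND1. IDH1 had 2 and 0 units in HITS-CLIP AEG1 and 146 in PAR-CLIP AEG1. With a single HITS-CLIP site in 1 replicate, this likeness rests mainly on the PAR-CLIP library.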

How the data were processed

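The authors deposited 1 headerless list of sites per library, giving RefSeq mRNA, gene symbol, start, end and a score. The values of the deposited score show a log2 scale. Not given in the sources used here are its normalization, the reference, the site caller and the use of controls. The submitters' processing notes name Bowtie and no version of it. Starts were taken as 0-based and are printed 1-based on the mRNA. Units were solved for transcripts with at least 6 sites, within a relative tolerance of 2e-05, in 4102 of 4103 transcripts (61804 sites). The solver was tested on data simulated from the model it assumes, with 1 site of each transcript set to 1 unit. Such a test checks the calculation and not the model. No count model was run, since no counts were at hand.

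Genes other than MTDH and SND1 were named through a RefSeq gene table (GRCh38.p14, 20056 protein-coding genes). Accessions matched 8146 of 8204 transcripts, symbols a further 30 and synonyms 20, while 8 kept the file's symbol. Libraries were grouped by title. HITS-CLIP AEG1 and controls were compared by exact permutation, and the other values are descriptions. The genes and lists were chosen with earlier results of these data known. Genes named are MTDH, SND1, LRRC59, AGO2, the 3 members of each of 5 lists with most PAR-CLIP AEG1 sites, and the 5 genes nearest to each of MTDH and SND1; others are named where counts were small or as marked. Alternatives covered short sites, score, merging, overlap, ranking and single replicates. Python 3.11.15, numpy 2.4.6 and scipy 1.17.1 were used.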

Additional observations from a re-analysis of the deposited data

How the results depend on the processing

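A total of 24 results were recomputed in 79 alternative settings. Of these settings, 56 gave the same reading and 23 moved, some percentiles from above the median gene to below it. Leaving out a replicate gave differences of 8 to 10 MTDH sites and 0 to 1 SND1 sites in HITS-CLIP, and 0 to 39 covered nt on SND1. Without replicate 2, 4 AEG-1 partners had a site, and without replicate 1, 3 Tudor proteins did. The replicate numbers of AEG1 and control libraries are not known to pair them (correlation of deviations 0.0281 over 2251 genes); with the replicate block the MTDH difference stayed at 9 sites and the SND1 difference at 0.5. Above the median score of each library, the differences were 4 PAR-CLIP sites for MTDH, 4 for SND1 with 1048 covered nt, and 0 HITS-CLIP sites and 0 covered nt for SND1. Ranked by sites per 1000 nt, MTDH stood at the 72.8th (HITS-CLIP) and 46.4th (PAR-CLIP) percentile and SND1 at the 75.02th (PAR-CLIP). Ranked by highest score, the same 3 were 79.0, 96.9 and 48.5, and by covered nt the PAR-CLIP values were 94.96 and 96.93, against 91.2, 81.1 and 89.2 by number of sites. With overlap of 50% of each site, 5.26% of HITS-CLIP sites matched PAR-CLIP sites. With at least 2 sites required, 1 partner, 0 silencing proteins and 0 Tudor proteins remained in HITS-CLIP and 5 downstream genes in PAR-CLIP, as also with a site above the median score. The causes were not tested. Depth limits are unknown, since sites below the callers' threshold are not listed.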

Other observations

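Genes reported downstream of AEG-1 in liver cancer, a list outside the comparisons above, had sites on 8 of 12 members in PAR-CLIP AEG1 and on 2 of 12 in both HITS-CLIP AEG1 replicates, against 39.8% and 6.57% of all protein-coding genes, and no site in a control. ABCB1, the drug efflux pump P-glycoprotein, held 17 and 18 HITS-CLIP AEG1 sites with 80 and 100 units, and 18 PAR-CLIP AEG1 sites with 385 units. MET, the receptor of hepatocyte growth factor, held 7 and 6 HITS-CLIP sites with 27 and 33 units, and 38 PAR-CLIP sites with 421 units. MYC, a transcription factor, held 10 PAR-CLIP sites with 28 units and no HITS-CLIP site. CCND1, a cyclin, held 1 and 0 HITS-CLIP sites and 1 PAR-CLIP site, and FGFR1, a growth factor receptor, held 1 PAR-CLIP site and no HITS-CLIP site; both are named after their values were seen. TFCP2, ABCC11, F12 and SPP1 were listed in no library.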
